A study of Mus musculus with 6 samples.

Results

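*Epcam*, *Cdh1*, *Itga6*, *Itgb1*, *Thy1*, *Cd9*, *Cd24a* and *Mcam* encode adhesion and surface proteins that are used to enrich spermatogonia from testis cell suspensions. They were selected by gene name and are 8 of the 54532 genes in the deposited expression table. All 8 had a mean of at least 0.5 FPKM (reads scaled by the authors to gene length and to a size factor of each library) over the samples, the level set for testing, which 16206 genes reached. RNA-seq of polyadenylated RNA was performed on whole mouse testes taken 5 days postpartum (dpp), from 3 control (Ctrl) and 3 conditional knockout (cKO) samples. The cKO mice were *Vasa*-Cre *Srsf1* Fl/del, so that the promoter of *Vasa* (*Ddx4*), a germ-cell gene, drove Cre and the loxP-flanked exons of *Srsf1*, which encodes a splicing factor, were deleted in germ cells, while the Cre is not meant to act in the other cells of the testis. The labels give the genotype of the controls only as Ctrl. The comparison asked which of the surface markers differed in transcript level between cKO and Ctrl testes. It also asked how closely each of them followed the germ-cell marker RNA of a whole testis.

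In the first days after birth the germ cells of the mouse testis, the gonocytes or prospermatogonia, move from the centre of the seminiferous cord to the basement membrane and become spermatogonia. Surface proteins serve as handles for antibodies in sorting because they stay accessible on a living cell, but few of them are made by germ cells alone. Integrins are pairs of an alpha and a beta subunit that hold cells to the extracellular matrix, cadherins and EPCAM join neighbouring cells, and tetraspanins such as CD9 organise other proteins in the membrane.

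Facts of the whole series touch every value below. Each library held between 15448191 and 18964743 reads assigned to genes, recovered from the FPKM. *Srsf1* gave 82.1, 89.1 and 88.4 FPKM in Ctrl 1, 2 and 3 and 45.1, 46.3 and 51.6 FPKM in cKO 1, 2 and 3. It was thus lower in cKO without overlap, although it did not pass the threshold (log2 fold change of -0.85, SE 0.0870, limma adjusted p = 0.0578). The extraction text of the labels names retinas, but all 7 photoreceptor and retinal markers examined were below the level set for testing, and their summed level was at most 0.567 FPKM, whereas the germ-cell, Sertoli cell and Leydig cell markers were present. Ctrl 2 stood apart from the other controls in germ-cell RNA. The mean level of 19 germ-cell markers, as a percentage of the Ctrl mean of each marker, was 70.2% in Ctrl 1, 165% in Ctrl 2 and 64.7% in Ctrl 3, and 29.8%, 41.5% and 29.4% in cKO 1, 2 and 3. The germ-cell markers were therefore lower in each cKO sample than in any Ctrl sample, and varied more than 2-fold among the controls. In whole testes, fewer germ cells and less RNA per germ cell cannot be told apart.

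No member passed the threshold of an adjusted p of 0.05 in either direction. Neither did any of the 16206 genes tested with limma on log2(FPKM + 1), so the share called was 0% in each direction, and the smallest adjusted p of any gene was 0.0578. That count depends on the test, since limma voom on reads recovered from the FPKM called 61 genes lower and 22 higher. The study tested the read counts of these samples with DESeq2 at the same adjusted p. It reported many genes in both directions, most of them lower in cKO. At an unadjusted p under 0.05, 3 members were lower and 1 was higher in cKO, beside 1508 genes (9.31%) lower and 1069 genes (6.6%) higher among all those tested. The 3 were *Epcam*, *Cdh1* and *Itga6*, and the 1 was *Cd24a*. In these same 4 genes the cKO and Ctrl samples did not overlap, beside 2071 genes (12.8%) without overlap in the lower direction and 1677 (10.3%) in the higher. *Itgb1*, *Thy1*, *Cd9* and *Mcam* overlapped between the groups. The median log2 fold change of the 8 members was -0.16, with 5 lower and 3 higher, and that of all tested genes was 0.0027. Without Ctrl 2, 3 members were lower and 2 higher without overlap, *Thy1* being added, beside 15.9% and 13.5% of all genes. Two-sided limma p-values here measure the spread among 3 samples of each group, which the study describes as biological replicates.

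**Figure D1:**
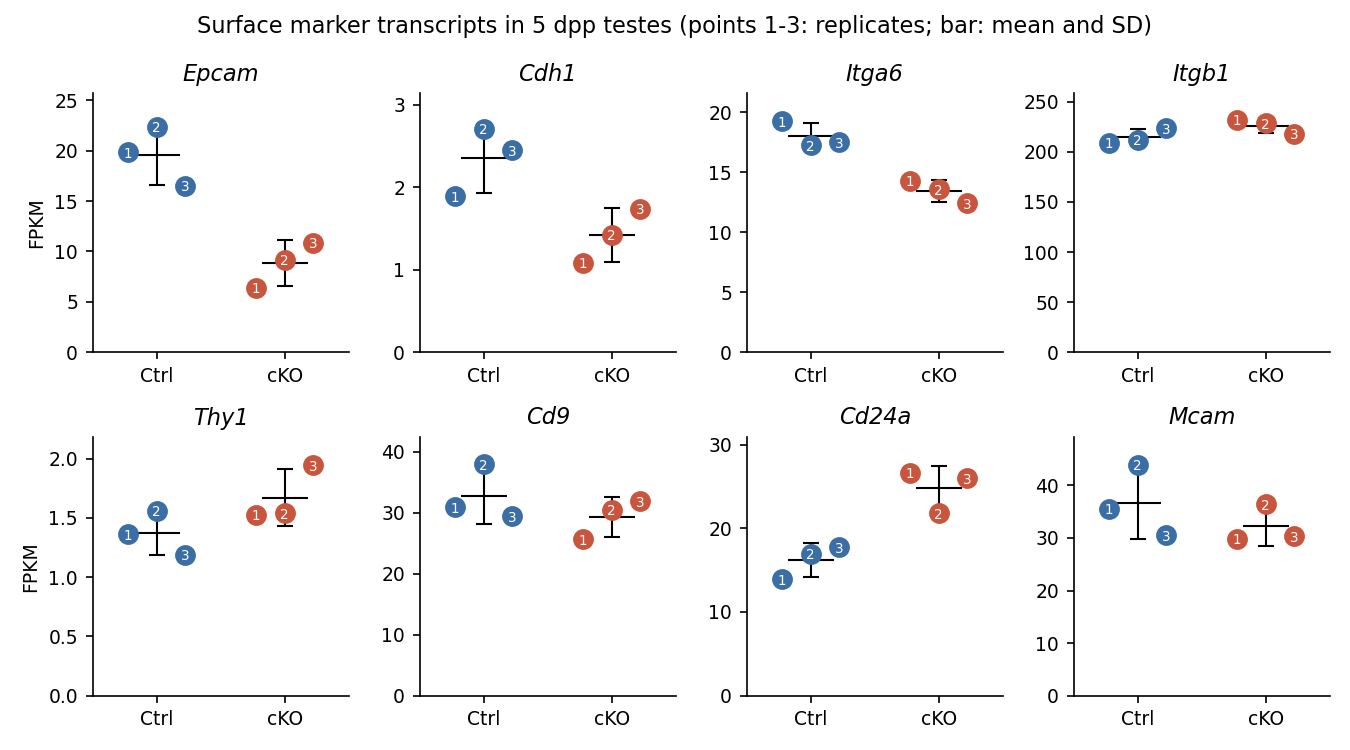
FPKM of the 8 surface marker transcripts (y axes from 0, one panel per gene) in 3 Ctrl (blue) and 3 cKO (red) testes at 5 dpp. Numbered points are the samples and the bars give the mean and SD of each group. The 3 cKO samples lie below all Ctrl samples for *Epcam*, *Cdh1* and *Itga6* and above them for *Cd24a*, and the groups overlap in the other 4 panels.

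The sequences upstream of the transcription start are shown for the members at both ends of the range of values, *Epcam*, which had the largest difference between groups, and *Itgb1*, which had the highest level and the smallest difference. The 250 bases before each start, from RefSeq on GRCm38.p6, plus strand, lie at chr17:87635729-87635978 for *Epcam* and at chr8:128685404-128685653 for *Itgb1*. Capitals mark the E-box CAGGTG or its reverse complement CACCTG, a sequence recognised by several zinc-finger and basic helix-loop-helix factors.
Epcam: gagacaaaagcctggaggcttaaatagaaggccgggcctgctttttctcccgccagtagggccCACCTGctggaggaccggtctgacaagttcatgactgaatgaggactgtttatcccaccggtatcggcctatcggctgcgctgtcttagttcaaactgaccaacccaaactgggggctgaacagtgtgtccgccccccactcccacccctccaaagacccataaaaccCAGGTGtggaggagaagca
Itgb1: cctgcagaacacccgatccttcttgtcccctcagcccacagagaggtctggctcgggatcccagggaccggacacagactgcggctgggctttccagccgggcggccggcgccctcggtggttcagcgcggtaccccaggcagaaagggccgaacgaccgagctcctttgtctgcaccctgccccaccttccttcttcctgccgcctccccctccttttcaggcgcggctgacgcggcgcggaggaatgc
The *Epcam* stretch holds 2 matches to the E-box and the *Itgb1* stretch holds 0, and 17.2% of 32851 RefSeq promoters, each searched over the same 250 bases, hold at least 1 on either strand. Base composition also differs, with 56.4% G and C and 8 CpG dinucleotides in *Epcam* against 68% and 21 in *Itgb1*. The medians of all promoters were 52.4% and 6. Of the other members, *Cd9* and *Mcam* had a promoter in the RefSeq table, each with 1 match. These are descriptions of the letters, and binding was not measured.

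EPCAM is an epithelial cell adhesion molecule that is also present on germ cells, and antibodies to it separate germ cells from somatic cells of the young testis. *Epcam* (ENSMUSG00000045394, GRCm38 chromosome 17, 87635979 to 87651106, plus strand) gave 19.8, 22.4 and 16.5 FPKM in Ctrl 1, 2 and 3 and 6.39, 9.19 and 10.9 FPKM in cKO 1, 2 and 3. All cKO samples were below all Ctrl samples, with a clear gap between the groups. The means were 19.6 ± 2.95 FPKM in Ctrl and 8.82 ± 2.27 FPKM in cKO (SD, n = 3 each), which is 45.0% of Ctrl, and the difference did not pass the threshold (log2 fold change of -1.09, SE 0.189, 95% CI -1.53 to -0.64, limma adjusted p = 0.10). It was the largest difference among the members, and 1.23% of all tested genes had a log2 fold change at or below it. Of the 15 alternatives, *Epcam* passed in limma on the 13204 protein-coding genes (adjusted p = 0.0297, with 1.33% of genes called lower and 0.28% higher) and limma voom on the recovered reads (adjusted p = 0.0394, with 0.376% called lower and 0.136% higher). It was the single member called in either of them. With the replicate number as a block, where 84 genes were called lower and 14 higher, its adjusted p was 0.107, and over the other alternatives it lay between 0.0720 and 0.244. The values rested on 205 to 870 reads per sample.

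CDH1, E-cadherin, joins epithelial cells through calcium-dependent contacts and marks undifferentiated spermatogonia. *Cdh1* (ENSMUSG00000000303, chromosome 8, 106603351 to 106670246, plus strand) was a low transcript, with values of 1.89, 2.71 and 2.45 FPKM in the Ctrl samples against 1.08, 1.43 and 1.74 FPKM in the cKO samples. The highest cKO value was just under the lowest Ctrl value. The cKO mean was 60.3% of Ctrl (2.35 ± 0.419 and 1.42 ± 0.329 FPKM), with a log2 fold change of -0.47 (SE 0.152, 95% CI -0.83 to -0.12, limma adjusted p = 0.220) that understates the change because *Cdh1* is low on the log2(FPKM + 1) scale. Only 78 to 236 reads per sample stood behind it.

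ITGA6 and ITGB1 form a laminin receptor, and both subunits are used to enrich spermatogonial stem cells. *Itga6* (ENSMUSG00000027111, chromosome 2, 71745616 to 71858416, plus strand) gave 19.2, 17.3 and 17.5 FPKM in the controls and 14.3, 13.6 and 12.4 FPKM in the knockouts. The groups were separate and each was tight. The cKO mean was 74.6% of Ctrl (18.0 ± 1.09 and 13.4 ± 0.95 FPKM), with a log2 fold change of -0.40 (SE 0.0884, 95% CI -0.61 to -0.19, limma adjusted p = 0.125). With 1730 to 2965 reads per sample, *Itga6* was well covered. In all, 5.31% of the 50-base stretches of its transcripts also occur in other genes, among them *Gm47547*, which reached 6.05 FPKM, and how the counting split such reads is not stated.

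*Itgb1* (ENSMUSG00000025809, chromosome 8, 128685654 to 128733200, plus strand) encodes the beta subunit shared by many integrins. It was the most abundant member, with 209, 212 and 224 FPKM in the controls and 232, 229 and 218 FPKM in the knockouts, above 98.9% of the tested genes in mean FPKM. The ranges overlapped. Its log2 fold change of 0.07 (SE 0.0852, 95% CI -0.13 to 0.27, limma adjusted p = 0.705) bounds the difference to a narrow interval around 0, on 13745 to 16471 reads per sample. The alpha subunit therefore took a smaller share beside the beta subunit in cKO. *Itga6* per *Itgb1* was 9.21%, 8.14% and 7.82% in the Ctrl samples and 6.16%, 5.94% and 5.69% in the cKO samples, a ratio chosen after the values were seen and not tested.

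THY1 is a small glycoprotein anchored by a lipid in the membrane of T cells, neurons, fibroblasts and rodent spermatogonial stem cells. *Thy1* (ENSMUSG00000032011, chromosome 9, 44043384 to 44048579, plus strand) was the lowest member in Ctrl, with 1.36, 1.56 and 1.19 FPKM there against 1.53, 1.54 and 1.95 FPKM in cKO. Ctrl 2 lay above 2 of the cKO samples, so the groups overlapped. The log2 fold change was 0.17 (SE 0.125, 95% CI -0.12 to 0.47, limma adjusted p = 0.534), and the cKO mean was 122% of Ctrl (1.37 ± 0.187 and 1.67 ± 0.238 FPKM). It rested on 59 to 90 reads per sample, the fewest of the members. The T cell genes *Cd3e*, *Cd3g*, *Cd3d* and *Cd2* were below the level set for testing, and the fifth of the list, *Lck*, had a mean of 0.915 FPKM with overlapping groups (log2 fold change of -0.01). All 6 interstitial stroma markers had a higher mean in cKO, with a median log2 fold change of 0.18. Their sums overlapped, at 892 to 1021 FPKM in Ctrl and 940 to 1399 FPKM in cKO. The part of T cells or of stroma in the *Thy1* values was not tested.

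CD24A, a short mucin-like protein with the same kind of lipid anchor, occurs on many immature and epithelial cells and on blood cells. *Cd24a* (ENSMUSG00000047139, chromosome 10, 43578284 to 43584265, plus strand) was the single member that was higher in cKO without overlap. The controls gave 13.9, 16.9 and 17.7 FPKM and the knockouts 26.6, 21.8 and 26.0 FPKM. The cKO mean was 153% of Ctrl (16.2 ± 2.01 and 24.8 ± 2.64 FPKM), and the difference did not pass the threshold (log2 fold change of 0.59, SE 0.121, 95% CI 0.30 to 0.87, limma adjusted p = 0.111). Among all tested genes 1.83% had a log2 fold change at least as high. *Cd24a* shares 2.75% of its 50-base stretches with *Gm6212*, which was listed at 0 in all samples. Erythroid markers moved with it in direction, since 5 of 6 were tested and all 5 had a higher mean in cKO (median log2 fold change of 0.69). Their sum was 438, 487 and 697 FPKM in Ctrl 1, 2 and 3 and 836, 526 and 1480 FPKM in cKO 1, 2 and 3, so they overlapped between groups where *Cd24a* did not. In both readouts cKO 2 was the lowest cKO sample, as it was in the Leydig, endothelial and pericyte marker sums. Leydig sums were 695, 804 and 957 FPKM in Ctrl 1, 2 and 3. In cKO 1, 2 and 3 they were 1170, 1055 and 1071 FPKM, without overlap. Endothelial and pericyte sums were also higher in cKO without overlap. Germ-cell and peritubular myoid sums were lower without overlap, and Sertoli, stroma and macrophage sums overlapped. The part of red blood cells or of any other cells in the *Cd24a* difference was not tested.

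CD9 is a tetraspanin that gathers integrins in the membrane and is found on spermatogonial stem cells and on many somatic cells. *Cd9* (ENSMUSG00000030342, chromosome 6, 125460266 to 125494791, minus strand) gave 30.9, 38.0 and 29.4 FPKM in the controls against 25.7, 30.5 and 31.9 FPKM in the knockouts. The groups overlapped, with Ctrl 2 highest. Its log2 fold change was -0.15 (SE 0.127, 95% CI -0.45 to 0.15, limma adjusted p = 0.589), and without Ctrl 2 the cKO mean was 97.3% of Ctrl in place of 89.6%. The antisense gene *Gm28809* overlaps *Cd9* but reached only 0.761 FPKM, and 14.4% of the 50-base stretches of *Cd9* transcripts also occur in other genes. Of the 5 genes that share most with it, the highest was *Gm16754* at 0.780 FPKM. Whether the counting used strand is not stated in the sources used here.

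MCAM, an adhesion molecule of the immunoglobulin family, is found on endothelial cells, pericytes and smooth muscle and is used with other markers to separate spermatogonia by stage. *Mcam* (ENSMUSG00000032135, chromosome 9, 44134469 to 44142727, plus strand) gave 35.6, 44.0 and 30.5 FPKM in the controls against 29.8, 36.4 and 30.4 FPKM in the knockouts. Sample 2 was the highest in each group and the ranges overlapped. The log2 fold change was -0.17 (SE 0.146, 95% CI -0.52 to 0.17, limma adjusted p = 0.592), and the cKO mean was 87.7% of Ctrl, or 97.4% without Ctrl 2. Markers of the cells that carry MCAM differed in direction. Of 10 endothelial markers 9 had a higher mean in cKO, with a summed level of 66.7 to 75.3 FPKM in Ctrl and 85.2 to 96.0 FPKM in cKO, and all 6 pericyte markers had a higher mean, with sums of 26.2 to 33.4 FPKM and 35.4 to 40.3 FPKM. The peritubular myoid markers, genes of smooth muscle, went the way of *Mcam*, with 5 of 6 at a lower mean in cKO and a median log2 fold change of -0.35. Their sum was 520.7 to 533 FPKM in Ctrl and 328 to 511 FPKM in cKO. *Acta2* and *Myh11*, a smooth muscle actin and a myosin heavy chain, were lower without overlap, at 76.8% and 64.3% of Ctrl. *Des*, the gene of this list with a higher mean, was higher without overlap, at 133% of Ctrl. No gene of these 3 lists passed the threshold, and their part in the *Mcam* values was not tested.

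The levels of the members, in FPKM and so per gene length, fell in the order *Itgb1*, *Mcam*, *Cd9*, *Epcam*, *Itga6*, *Cd24a*, *Cdh1* and *Thy1* in Ctrl. *Mcam* and *Cd9* were neighbours whose ranges overlapped, as were *Epcam* and *Itga6*, and *Itga6* and *Cd24a*. In cKO the order was *Itgb1*, *Mcam*, *Cd9*, *Cd24a*, *Itga6*, *Epcam*, *Thy1* and *Cdh1*. There the ranges of *Mcam* and *Cd9*, of *Cd9* and *Cd24a*, and of *Thy1* and *Cdh1* overlapped. *Epcam*, above *Itga6* and *Cd24a* in mean level in Ctrl, was below both in every cKO sample.

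The markers were then set beside germ-cell genes, since a transcript made by germ cells alone would follow them. Of 20 germ-cell markers, 19 reached the level for testing and 18 of these had a lower mean in cKO, with a median of 26.5% of Ctrl and a median log2 fold change of -1.39. The groups did not overlap in 16 of them, and 0 passed the threshold by limma (16 at an unadjusted p under 0.05). The most abundant were *Dazl*, *Ddx4* and *Mael*, RNA-binding and piRNA-pathway genes of the germ line, at 19.5%, 27.4% and 22.0% of Ctrl. *Utf1*, a transcription regulator of undifferentiated spermatogonia, had the 1 higher mean, with overlapping groups. All 8 surface markers kept a larger share of the Ctrl level than the median germ-cell marker. On the log2(FPKM + 1) scale the mean of the 19 markers differed by -1.36 between cKO and Ctrl (exact permutation p = 0.1, the smallest that 3 against 3 samples can give).

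**Figure D2:**
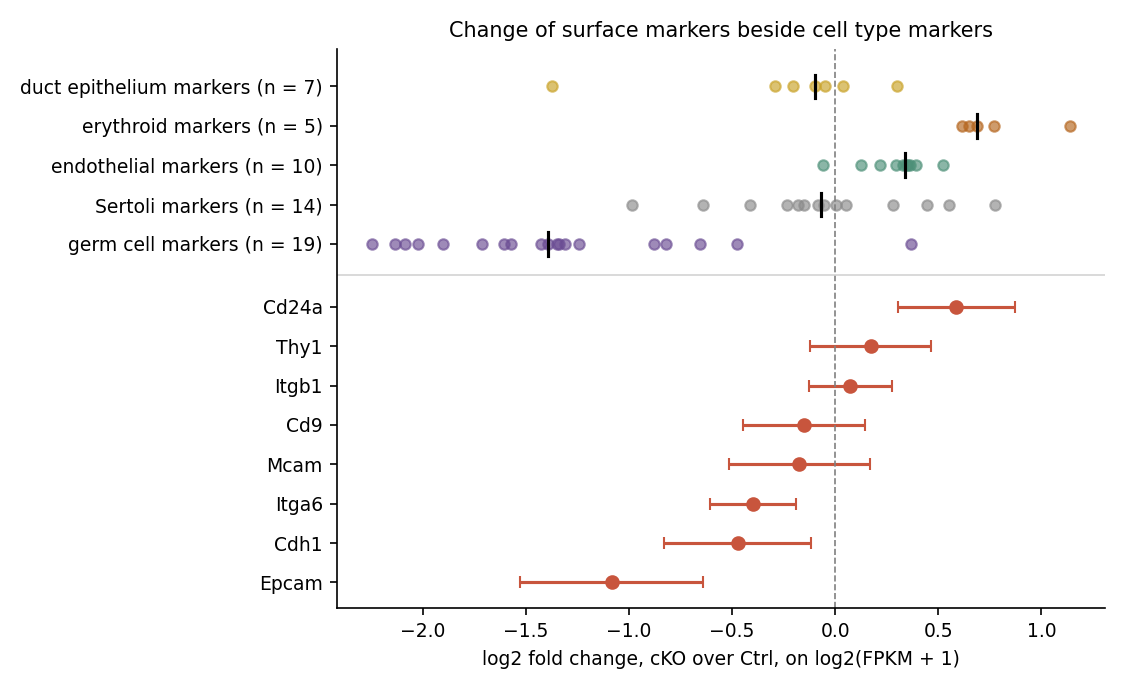
Log2 fold change of cKO over Ctrl on the log2(FPKM + 1) scale (x axis) for the 8 surface markers with 95% confidence intervals (red) and for single genes of 5 cell type marker lists (dots, with the median of each list as a black bar). *Epcam* at -1.09 lies nearest to the germ-cell median of -1.39, while the other surface markers lie between -0.47 and 0.59.

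Each member was also expressed relative to the germ-cell mean of its own sample. For *Epcam* this relative level differed by 0.27 between cKO and Ctrl, the samples overlapped, and the exact permutation p was 0.6. For the other 7 members the cKO samples all had a higher relative level than any Ctrl sample. The germ-cell mean itself differed by -1.36 between cKO and Ctrl, so a gene of unchanged level also rises on this relative scale. How many of all tested genes did so was not computed, and the separation is not particular to these members. The differences were 0.89 for *Cdh1*, 0.96 for *Itga6*, 1.43 for *Itgb1*, 1.53 for *Thy1*, 1.21 for *Cd9*, 1.95 for *Cd24a* and 1.19 for *Mcam*, each with an exact permutation p of 0.1, the smallest possible, and 0.114 after adjustment over the 8 members. The p of *Epcam* does not show that it moved as the germ-cell genes did. Without Ctrl 2, where the design allows no p below 0.2, the *Epcam* difference was 0.0023 (exact permutation p = 1).

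The spread among controls gives a second view of germ-cell marker RNA that does not use the genotype. The 19 germ-cell markers were between 1.77 and 4.02 times as high in Ctrl 2 as in the mean of Ctrl 1 and Ctrl 3, with a median ratio of 2.32. The same ratio of the members was 1.23 for *Epcam*, 1.25 for *Cdh1*, 0.939 for *Itga6*, 0.980 for *Itgb1*, 1.22 for *Thy1*, 1.26 for *Cd9*, 1.07 for *Cd24a* and 1.33 for *Mcam*. No member, *Epcam* included, reached the lowest ratio of the germ-cell markers. Sertoli markers had a median ratio of 0.744, and all 8 members lay between the medians of these lists. Among the cKO samples the germ-cell markers had a median ratio of 1.75 in cKO 2 over the mean of cKO 1 and cKO 3, while those of the members lay between 0.828 (*Cd24a*) and 1.21 (*Mcam*). These ratios rest on a single sample in each group and were not tested. *Epcam* was thus the nearest member to the germ-cell genes in the comparison of genotypes, and apart from them in the comparison of control testes.

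**Figure D3:**
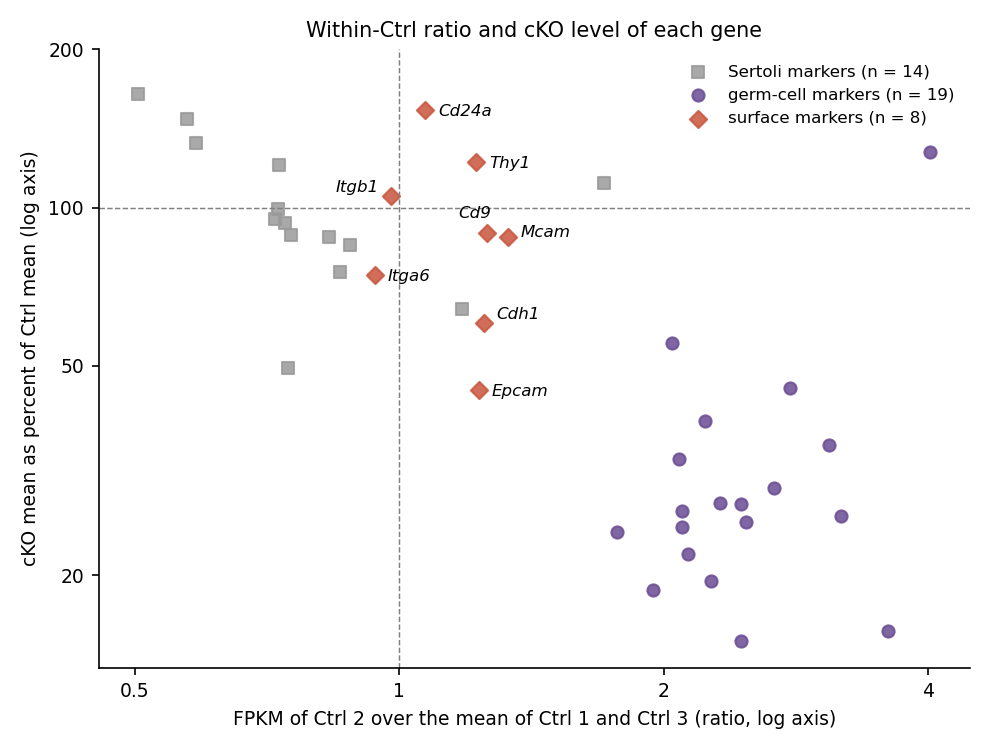
FPKM of Ctrl 2 over the mean of Ctrl 1 and Ctrl 3 (x axis, log scale) against the cKO mean as a percentage of the Ctrl mean (y axis, log scale) for the surface markers, 19 germ-cell markers and 14 Sertoli markers, one point per gene. The germ-cell markers have ratios of 1.77 or more, the surface markers 1.33 or less.

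Duct epithelium was examined as another source of *Epcam* and *Cdh1*, since rete testis and efferent ducts carry both. Of 10 duct markers 7 were tested, 5 with a lower and 2 with a higher mean in cKO, at a median log2 fold change of -0.10, and 0 passed the threshold by limma (1 at an unadjusted p under 0.05). Their summed level was 10.1, 19.5 and 13.4 FPKM in Ctrl 1, 2 and 3 and 5.76, 11.1 and 15.3 FPKM in cKO 1, 2 and 3. The groups overlapped, but within cKO the order of the samples was the same as for *Epcam* and *Cdh1*, and within Ctrl the same as for *Cdh1*. *Pax2*, *Cldn4* and *Grhl2* were below the level set for testing, and *Grhl2* was also lower in cKO without overlap, at 39.9% of Ctrl. The one tested duct gene without overlap was *Esrp1*, a splicing regulator of epithelia, at 25.6% of Ctrl (log2 fold change of -1.37, limma adjusted p = 0.124). That share was near the germ-cell median of 26.5%. In Ctrl 2 over the mean of Ctrl 1 and Ctrl 3, *Esrp1* and *Grhl2* lay within the germ-cell range of 1.77 to 4.02. So did *Krt7*, *Krt19* and *Cldn3*, while *Pax8*, *Wfdc2* and *Esrp2* lay below it. *Krt19*, the most abundant duct marker, had a higher mean in cKO, at 142% of Ctrl, with overlapping groups. Whether *Esrp1* and *Grhl2* came from duct or germ cells was not tested. The part of duct cells in the *Epcam* and *Cdh1* values was not tested. Sertoli markers, which are epithelial too, had a median log2 fold change of -0.07 over 14 genes.

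Families of the members were described from gene lists chosen by function. The share of genes past the threshold was 0% in every list. Of 24 integrin subunits, 15 reached the level for testing, 6 with a lower and 9 with a higher mean in cKO, and their median log2 fold change was 0.05. *Itga8*, which pairs with the beta 1 subunit, was at -0.39 (limma adjusted p = 0.262) and *Itga7*, another laminin-binding alpha subunit, at -0.33 (adjusted p = 0.256), both without overlap. *Itga9* at 0.25 and *Itgav*, whose protein is used to exclude somatic cells in sorting, at 0.26 were the most positive. *Itga6* had the most negative log2 fold change of the integrin subunits at a mean of at least 1 FPKM, but only on the log2(FPKM + 1) scale, which understates changes of low genes. As a share of Ctrl, *Itga8* (67.6%) and *Itga7* (68.9%) were lower than *Itga6* (74.6%). With voom the log2 fold changes were -0.60 for *Itga8*, -0.53 for *Itga7* and -0.42 for *Itga6*. The laminins, the ligands of ITGA6, did not share the lower level of *Itga6*. Of 10 tested, 8 had a higher mean in cKO, the median log2 fold change was 0.10, and *Lama3* at -0.21 and *Lama4* at 0.16 were the extremes at that level.

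Among the cadherins and catenins, which bind and anchor CDH1, 9 of 13 were tested and their median log2 fold change was 0.09. *Cdh3*, or P-cadherin, gave 15.3, 16.3 and 16.5 FPKM in the controls and 20.9, 21.3 and 21.5 FPKM in the knockouts, a log2 fold change of 0.38 (SE 0.0731, limma adjusted p = 0.105). Here the groups did not overlap and the samples of each group were close together, in the direction opposite to *Cdh1*. *Cdh5*, the cadherin of endothelium, was at 0.36, *Cdh2* at -0.08 and *Ctnna2*, an alpha catenin, at -0.19. The 22 tetraspanins and CD9 partners were all tested, 4 with a lower and 18 with a higher mean in cKO, with a median of 0.10. *Tspan17* at -0.41 and *Tspan15* at 0.47 were the extremes, and *Ptgfrn*, a partner of CD9, was at 0.31 and *Tspan2* at -0.04. *Cd9*, at -0.15, lay below all of these genes except *Tspan17*. This position depended on Ctrl 2, without which *Cd9* was at -0.04 and *Tspan2* at -0.11.

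**Figure D4:**
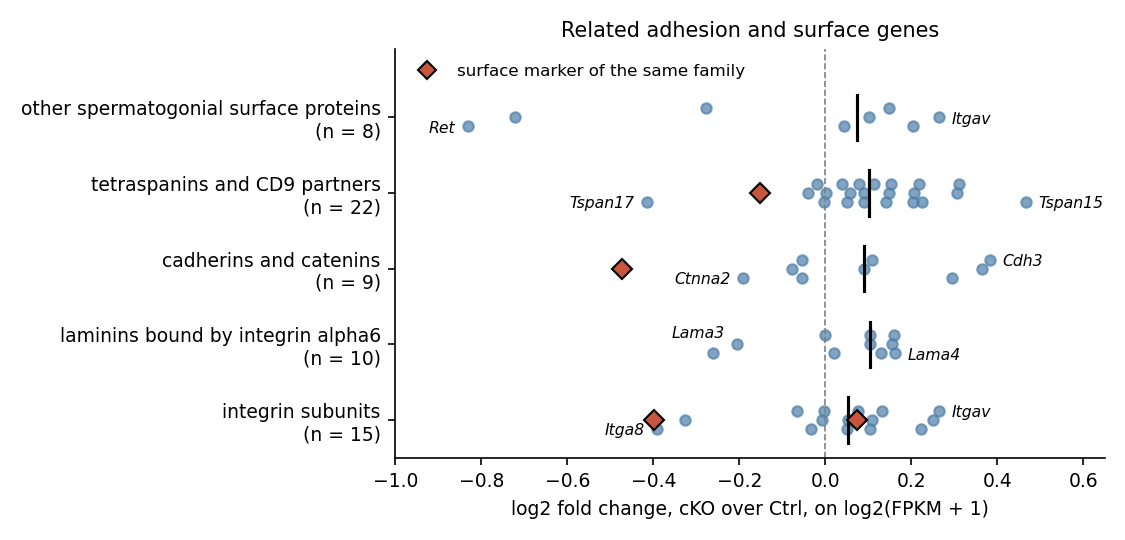
Log2 fold change of cKO over Ctrl on the log2(FPKM + 1) scale (x axis) for genes of 5 families (dots, n tested in parentheses, list median as a black bar), with members of the same family as red diamonds and the extreme other genes at a mean of at least 1 FPKM named. List medians lie between 0.05 and 0.10, with *Itga6*, *Cdh1* and *Cd9* below the medians of their families.

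Other surface proteins of spermatogonia gave a further comparison. Of 10, 8 were tested, with a median log2 fold change of 0.07, and *L1cam* and *Ceacam1* were below the level set for testing. *Gfra1* and *Ret* encode the co-receptor and the kinase through which GDNF acts on spermatogonial stem cells. *Gfra1* gave 3.18, 4.48 and 3.20 FPKM in the controls and 1.30, 2.57 and 1.62 FPKM in the knockouts. *Ret* gave 3.80, 5.96 and 3.87 FPKM against 1.83, 3.06 and 1.51 FPKM. Both were lower in every cKO sample, at 50.5% and 47.0% of Ctrl (limma adjusted p = 0.166 for each), close to the 45.0% of *Epcam*, and both were highest in sample 2 of their group. *Gfra1* and *Ret* had Ctrl 2 ratios of 1.40 and 1.55, above every member and below every germ-cell marker. *Kit*, the receptor by which differentiating spermatogonia are excluded in sorting, had a log2 fold change of -0.28 with overlapping groups. *Tspan8*, a tetraspanin of stem spermatogonia, was at 0.20, *B2m*, the light chain of MHC class I, at -0.05 and *Pecam1*, an endothelial adhesion molecule, at 0.39, without overlap between groups.

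As a description of the pattern over the 6 samples, each member was correlated with 13203 other protein-coding genes on the log2(FPKM + 1) scale. The points share library and depth. *Epcam* was most like *Foxc2* (Pearson r = 0.996), *Tmem110* (0.995) and *Nampt* (0.993), and 120 genes were above 0.95. *Cd24a* was most like *Maoa* (0.996), *Ssbp2* (0.991) and *Arhgap28* (0.987). The closest to *Cdh1* was *Gatad2a* (0.997), to *Itga6* *Galnt1* (0.989), to *Itgb1* *Pcdhgb6* (0.991), to *Thy1* *Gnb1l* (0.990), to *Cd9* *Rbm34* (0.991) and to *Mcam* *Gbp2* (0.996). None of the germ-cell markers was among the 3 closest genes of any member. With only 19 such markers beside 13203 compared genes, this absence was likely for any gene and says little about the members.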

How the data were processed

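The authors aligned paired-end reads with HISAT2 2.0.5 to mm10, counted reads per gene with featureCounts and deposited FPKM values scaled by gene length, for 54532 genes in 3 Ctrl and 3 cKO testis samples. The deposited gene length, with the FPKM, gave back whole reads for 100% of values (within 0.01), 15448191 to 18964743 per sample. Libraries had been scaled by median-of-ratios size factors, not by total reads, as the recovered steps show. A gene of 1 kb with 3 reads would stand at 0.158 to 0.194 FPKM, a floor that covers counting error only. Groups and replicate numbers came from the sample titles. Genes averaging 0.5 FPKM or more over the samples (16206) were fitted on log2(FPKM + 1) with limma 3.58.1 in R 4.3.3, using moderated variances that follow mean expression. The two-sided p-values received Benjamini-Hochberg adjustment over all tested genes, with a threshold of 0.05. The main test was run on the deposited FPKM, and the recovered reads were tested in an alternative only. Alternatives were limma voom on recovered reads, a pseudocount of 0.1, a filter at 1 FPKM, no filter, TPM, quantile normalization, no trend, protein-coding genes only, the replicate number as a block and leaving out each sample. Marker means and relative levels were compared by exact permutation over samples.

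The members and gene lists were chosen with earlier results of these data known. All members were named with every value, and per family the 2 most negative and 2 most positive genes at a mean of at least 1 FPKM. Per member, the 3 most correlated protein-coding genes were computed. Cell type lists were given by counts, medians and their most abundant genes where a member is compared with them, and for Leydig cells (median log2 fold change of 0.42 over 10 genes), peritubular myoid cells (-0.35 over 6), stroma (0.18 over 6), macrophages (0.03 over 9) and nerve and glia (-0.11 over 3) by the median. Overlaps, exons and shared 50-base stretches were taken from GENCODE mouse release M21 on GRCm38, in which 54409 gene identifiers were found. In a simulation of cKO against Ctrl with 200 of 16206 genes changed by 1 on the log2 scale, limma recovered 64% with 3.76% of 133 calls false, and voom 75.5% with 3.21% of 156 calls false. The simulated reads were independent between genes, with a common dispersion for genes of like level. Shared shifts such as that of Ctrl 2 and genes of unusually high spread were thus absent. The recovered shares therefore do not give the power of the tests on the real samples. Same-numbered samples are not stated to share an animal or litter, and the deviations of samples with the same number correlated at 0.07, 0.02 and 0.09, so the numbers were not taken as pairs. Promoter sequences came from RefSeq, which held 4 of the 8 members.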

Additional observations from a re-analysis of the deposited data

How the results depend on the processing

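Of 638 values recomputed under up to 15 alternatives (9 for the exact tests), 609 were kept. The change of a gene was kept if its direction and its side of the threshold stayed. A count of genes was kept if it stayed within a set ratio of the main count. The exact permutation tests cannot pass the threshold in this design, so their values could only change direction. Among the members, *Epcam* passed the threshold with protein-coding genes only (log2 fold change of -1.09, adjusted p = 0.0297) and with limma voom (-1.18, adjusted p = 0.0394), so that 1 member was called lower in each. The other 7 members were never called, and *Cd24a* came nearest with protein-coding genes only (adjusted p = 0.0504). *Srsf1* passed with TPM (-0.86), protein-coding genes only (-0.85), voom (-0.86) and the replicate block (-0.85). Over all genes, the calls lower and higher in cKO were 1 and 4 with TPM, 0 and 1 with no mean-variance trend, 176 and 37 with protein-coding genes only, and 61 and 22 with voom. With the replicate block they were 84 and 14, with 0 members among them, and the block changed no other call. Leaving out each sample in turn gave 0 to 15 genes lower and 0 to 3 higher, with 15 and 3 without Ctrl 2 and 2 and 3 without Ctrl 3. The cause of these shifts was not tested.

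Directions turned for genes near 0. With a sample left out, the log2 fold change ranged from -0.14 to 0.025 for *B2m* (highest without cKO 1), from -0.11 to 0.066 for *Tspan2* (positive without Ctrl 3, and at 0.028 without cKO 1) and from -0.15 to 0.18 for *Lama5* (negative without Ctrl 1, at -0.028 without Ctrl 3 and at -0.11 without cKO 2), and *Lama5* was at -0.000037 with voom. No member changed direction. The *Epcam* log2 fold change ranged from -1.24 to -0.89 when a sample was left out. A count of members without overlap between groups, examined without Ctrl 2 after the data were seen, was 2 in place of 1 in the higher direction.

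Depth limits *Thy1* and *Cdh1* most, with at most 90 and 236 reads per sample. With 3 samples per group the exact tests cannot give a p below 0.1, and leaving out a sample raises that limit to 0.2. The markers were measured as transcripts of whole testes, and surface protein on germ cells was not measured.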
